A study of Mus musculus with 15 samples.

Results

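The SLC25 family, the mitochondrial carriers that the mouse genome names with symbols starting Slc25a, was followed through the differentiation of 3T3-L1 preadipocytes. Members were all genes with such a symbol, leaving out Slc25a1 and Slc25a20, the citrate and the carnitine/acylcarnitine carrier. The files list 45 such genes among 25700 gene identifiers. Of these 43 had at least 1 read in the 15 libraries, and 37 had enough reads to be tested. Each carrier is a small protein of the inner mitochondrial membrane, with exceptions in the outer membrane and in peroxisomes, that swaps or imports a set of small molecules. The substrates include ATP, phosphate, dicarboxylates, amino acids, cofactors, iron and nucleotides. In white fat cells the carriers link mitochondrial metabolism to the cytosolic supply of carbon and reducing power for making fatty acids. The carriers are made in the cytosol and reach the inner membrane through a dedicated import route.

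3T3-L1 is a mouse preadipocyte line that becomes lipid-storing after confluence in medium with dexamethasone, IBMX and insulin. RNA was sequenced from 5 groups of 3 libraries. At day 6 of differentiation these were a line that by its label overexpresses a MIGA2-GFP fusion (MIGA2-GFP), a line labelled MIGA2-depleted (MIGA2-KO) and wild-type cells (WT). At day 0, on adding differentiation medium, there were MIGA2-KO and WT cells. All groups share the 3T3-L1 background and the same differentiation schedule. MIGA2, mitoguardin 2, sits in the outer mitochondrial membrane. The sources used here do not state how the depleted and overexpressing lines were made, nor whether each comes from 1 clone. The comparisons ask how gene expression changes over 6 days and how it differs with MIGA2 depletion or overexpression.

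Miga2 itself was read in every library. It had 17.2, 21.4 and 22.5 counts scaled to library size (CPM) in the libraries labelled MIGA2-KO at day 0, against 15.6, 17.8 and 13.6 CPM in WT at day 0. At day 6 it had 166, 155 and 159 CPM in MIGA2-GFP, 926, 74.5 and 70.02 CPM in MIGA2-KO and 145, 159 and 182 CPM in WT libraries. The library labelled MIGA2-KO day 6 replicate 1 thus held the most Miga2 reads of all 15, which goes against its label, while the other 2 MIGA2-KO libraries at day 6 were below every WT library. At day 0 the depleted line was not lower, and the MIGA2-GFP libraries lay within the WT range, so gene counts do not show the labelled depletion at day 0 or the labelled overexpression. The sources used here do not state whether the counted reads lie outside an edited part of the gene. The log2 fold change of Miga2 in MIGA2-KO against WT at day 6 was 1.14, not called, and -1.16 without that library (edgeR adjusted p = 1.67e-05). The fitted MIGA2-KO results at day 6 were also computed without that library. Library totals ran from 10748668 to 26003871 reads assigned to genes. Replicate 1 of WT day 0, WT day 6 and MIGA2-KO day 6 stood apart from its group. No label says that the replicates were grown apart, so a p-value here covers the scatter among these libraries, which may be technical. The 10 adipocyte markers summed to between 28958 and 30895 CPM in MIGA2-GFP, 9726 and 15293 CPM in MIGA2-KO and 43278 and 57597 CPM in WT at day 6, with none of them at 0. At day 0 they summed to between 1160 and 1194 CPM in MIGA2-KO and 690.0 and 812 CPM in WT, with 4 and 3 of the 10 at 0. The 8 preadipocyte markers summed to between 5852 and 6162 CPM in MIGA2-GFP, 10891 and 18686 CPM in MIGA2-KO and 5317 and 5777 CPM in WT at day 6. At day 6 the adipocyte sums were lower in MIGA2-KO than in WT, as was the share of reads held by the carriers. At day 0 they were higher in MIGA2-KO, where the carrier share was lower, mostly through Slc25a3, Slc25a4 and Slc25a5. The part of these markers in the carrier differences was not tested. In bulk RNA, fewer cells of a type and less RNA per cell cannot be told apart.

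The start regions of 5 carriers are shown because the results turn on these genes. Slc25a34 and Slc25a33 were among the carriers with the largest rises over 6 days in WT. Slc25a24 had the largest fall in WT and was not called over time in MIGA2-KO, and Slc25a4 and Slc25a5 are sister genes whose ratio differed between days. Each window runs 250 bases before to 50 bases after the RefSeq start (GRCm38.p6), 5′ to 3′ on the gene's strand, with motif matches in capitals.
Slc25a34, minus strand, chr4:141623785-141624084: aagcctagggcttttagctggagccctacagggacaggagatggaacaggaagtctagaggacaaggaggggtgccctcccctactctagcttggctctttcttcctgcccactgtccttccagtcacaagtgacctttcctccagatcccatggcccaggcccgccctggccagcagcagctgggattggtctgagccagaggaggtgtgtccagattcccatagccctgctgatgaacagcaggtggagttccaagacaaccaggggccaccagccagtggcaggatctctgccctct
Slc25a33, minus strand, chr4:149774218-149774517: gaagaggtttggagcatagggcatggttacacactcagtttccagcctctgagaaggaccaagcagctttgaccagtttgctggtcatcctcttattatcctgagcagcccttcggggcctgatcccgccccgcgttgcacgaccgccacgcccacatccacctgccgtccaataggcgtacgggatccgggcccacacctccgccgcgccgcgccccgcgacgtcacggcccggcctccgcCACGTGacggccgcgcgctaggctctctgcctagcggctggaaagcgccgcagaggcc
Slc25a24, plus strand, chr3:109122899-109123198: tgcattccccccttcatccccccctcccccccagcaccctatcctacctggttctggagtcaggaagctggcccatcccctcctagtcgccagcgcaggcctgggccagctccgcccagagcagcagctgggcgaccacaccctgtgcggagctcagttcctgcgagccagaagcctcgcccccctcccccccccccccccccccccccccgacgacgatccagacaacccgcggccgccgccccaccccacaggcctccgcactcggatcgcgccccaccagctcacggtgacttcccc
Slc25a4, minus strand, chr8:46211013-46211312: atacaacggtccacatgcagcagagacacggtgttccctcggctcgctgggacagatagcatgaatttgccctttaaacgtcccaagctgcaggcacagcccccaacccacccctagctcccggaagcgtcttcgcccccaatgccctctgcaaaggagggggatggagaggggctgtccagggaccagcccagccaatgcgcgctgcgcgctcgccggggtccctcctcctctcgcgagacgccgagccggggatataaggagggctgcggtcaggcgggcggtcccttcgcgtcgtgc
Slc25a5, plus strand, chrX:36795347-36795646: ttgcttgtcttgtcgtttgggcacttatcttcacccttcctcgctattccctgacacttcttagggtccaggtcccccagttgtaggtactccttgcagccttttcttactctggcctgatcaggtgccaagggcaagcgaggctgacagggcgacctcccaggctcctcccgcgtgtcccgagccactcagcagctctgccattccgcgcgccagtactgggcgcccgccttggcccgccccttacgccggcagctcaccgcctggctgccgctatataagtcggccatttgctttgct
The capitals in the Slc25a33 window mark an E-box (CACGTG, a site read by basic helix-loop-helix factors) that begins 8 bases before the start. The other 4 windows held no exact match to any of the 9 motifs searched on both strands. The Slc25a4 and Slc25a5 windows hold TATAAG, which differs in its last letter from the TATA box string searched (TATAAA). RefSeq windows were found for 34 of the 45 members. An E-box lay in 6 of the 34 (17.6%), against 8.09% of 27025 genes with a window. A cyclic AMP response element (TGACGTCA) lay in 2 (5.88% against 2.03% of all genes), a CCAAT box (CCAATCA) in 4 (11.8% against 9% of all genes) and a TATA box (TATAAA) in 2 (5.88% against 15.7% of all genes). No member window held the NRF1 motif (1.07% of all genes), the ETS motif CCGGAAGT (4.31%), the PPAR/RXR direct repeat (0.0481%), the ERR motif TCAAGGTCA (0.466%) or the C/EBP motif TTGCGCAA (0.207%). The median GC content was 60.2% in the member windows and 52.8% in all windows. A match describes letters only, and a window without one says nothing of a factor. The PPAR/RXR and ERR motifs share the letters AGGTCA.

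Together the carriers held a small share of all reads, and it was larger after differentiation. In MIGA2-KO their summed share was 0.255% ± 0.00859 at day 6 and 0.187% ± 0.00264 at day 0 (SD, n = 3 each). In WT it was 0.369% ± 0.0369 at day 6 and 0.238% ± 0.0231 at day 0, and MIGA2-GFP at day 6 had 0.347% ± 0.00317. No library of 1 group overlapped the other in 5 of the 6 pairs of groups compared. Each of those 5 had an exact two-sided permutation p = 0.1, the smallest that 3 against 3 allows, with an adjusted p of 0.12 over the 6. MIGA2-GFP and WT at day 6 overlapped (exact permutation p = 0.4). CPM per kilobase of exon (RPKM) allow genes to be compared. On that scale, over all 15 libraries, the highest carriers were Slc25a5 (276 RPKM), Slc25a4 (200 RPKM), Slc25a39 (105 RPKM), Slc25a3 (86.1 RPKM), Slc25a10 (64.4 RPKM) and Slc25a11 (60.4 RPKM). Slc25a4 and Slc25a5 are the ADP/ATP carriers, which export ATP made in the matrix, and Slc25a3 brings in the phosphate for it. Most of the day 0 difference in summed share lay in these carriers. Without Slc25a3, Slc25a4 and Slc25a5, the day 0 shares were 0.0969%, 0.0972% and 0.0950% in MIGA2-KO libraries. They were 0.101%, 0.0973% and 0.0999% in WT libraries. The ADP/ATP and phosphate carriers together held 41.2% to 42.2% of carrier reads in MIGA2-GFP libraries, 47.8% to 48.9% in MIGA2-KO and 49.9% to 52.9% in WT at day 6. At day 0 they held 48.1% to 48.8% in MIGA2-KO and 55.4% to 61.8% in WT libraries. Dicarboxylate and oxoacid carriers, Slc25a10 and Slc25a11 with traces of Slc25a21, grew over time in both lines. At day 6 they made up 15.5% to 16.3% of carrier reads in MIGA2-GFP libraries. In MIGA2-KO libraries the day 6 range was 11.3% to 13.0%, with 5.80% to 6.15% on day 0. In WT libraries the day 6 range was 12.7% to 17.1%, with 5.17% to 5.95% on day 0.

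**Figure D1:**
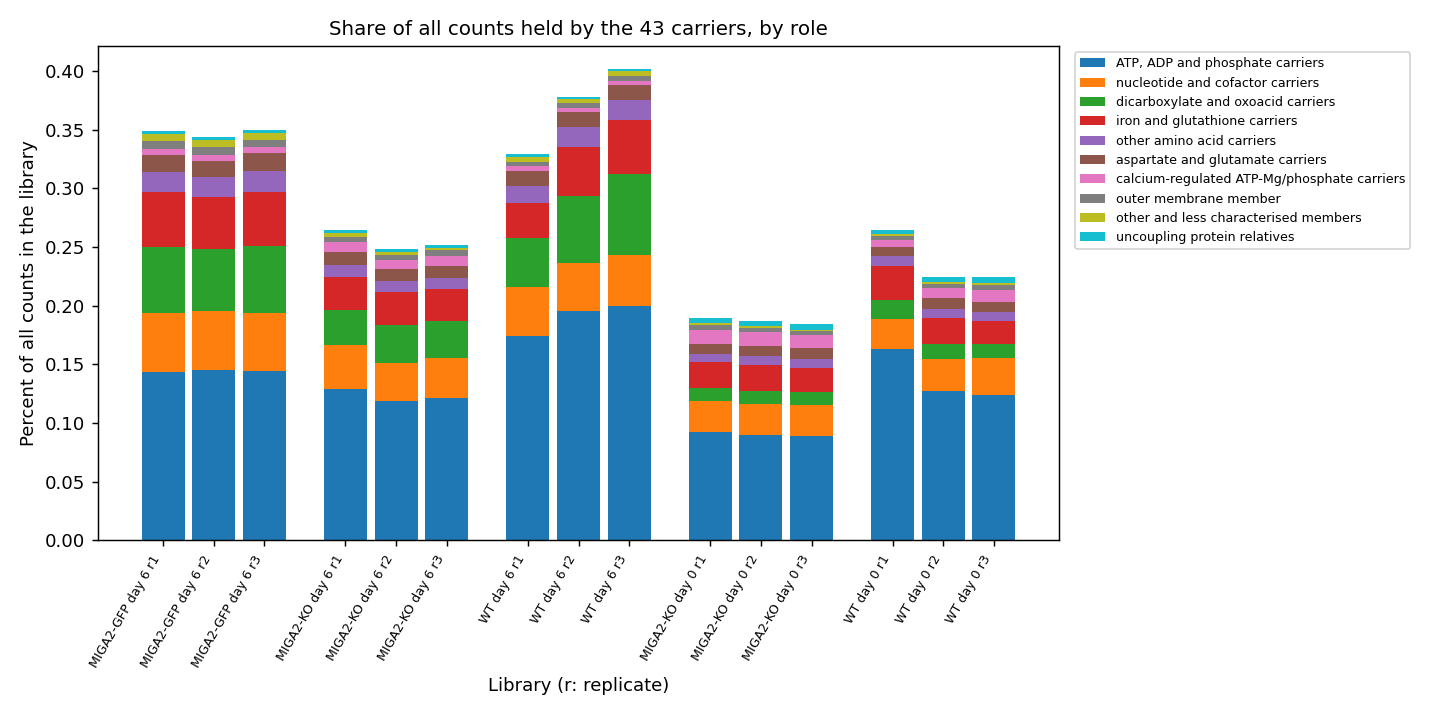
Share of all assigned reads (percent, bars from 0) held by the 43 carriers with counts in each of the 15 libraries, stacked by role. The MIGA2-GFP and WT libraries at day 6 have the tallest bars, and the MIGA2-KO day 0 libraries the shortest, near 0.187%.

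Over 6 days 18 of 37 carriers rose in cells labelled MIGA2-KO and 24 in WT cells, with the dicarboxylate carrier Slc25a10 and the orphan carrier Slc25a34 among those that rose most. By edgeR's quasi-likelihood test (adjusted p under 0.05), the 18 that rose stood beside 3 that fell and 16 not called in MIGA2-KO cells, where 44.3% of all 12279 genes tested were called, 23.3% higher and 21% lower. In WT cells the 24 that rose stood beside 6 that fell and 7 not called, where 64.8% of all genes were called, 31.7% higher and 33.1% lower. The median carrier log2 fold change was 0.42 in MIGA2-KO and 0.76 in WT, beside 0.02 and -0.04 for all genes. The medians stay the same with Slc25a34, which had no read at day 0, set to its lower bound. Of the 24 that rose in WT, 16 also rose in MIGA2-KO and the other 8 were not called there. Both comparisons of day 6 with day 0 use separate libraries, so no sample is shared between them.

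The dicarboxylate carrier Slc25a10, which exchanges malate and succinate for phosphate and is abundant in white fat, had the largest fitted rise among carriers with reads in all groups. It had 167, 217 and 198 CPM at day 6 and 21.99, 21.03 and 21.98 CPM at day 0 in MIGA2-KO libraries. In WT it had 324, 476 and 629 CPM at day 6 and 25.1, 19.3 and 14.9 CPM at day 0. Every day 6 library was far above every day 0 library in both lines, and the 3 WT libraries at day 6 were spread widely. The log2 fold change was 3.16 ± 0.23 in MIGA2-KO (SE, edgeR adjusted p = 3.62e-08) and 4.59 ± 0.24 in WT (adjusted p = 4.48e-10). The oxoglutarate/malate carrier Slc25a11, part of the malate-aspartate shuttle, also rose, with log2 fold changes of 0.39 in MIGA2-KO and 0.87 in WT. In MIGA2-KO the Slc25a11 call was lost when any 1 of 6 libraries was left out, at adjusted p up to 0.101.

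Slc25a34, a carrier with no settled substrate, was read at day 6 alone. Its read counts at day 6 were 369, 423 and 323 in MIGA2-GFP, 43, 6 and 3 in MIGA2-KO and 149, 139 and 196 in WT libraries, and no read fell on it in any of the 6 day 0 libraries. Against a floor of 3 reads over the day 0 group, day 6 was at least 18.7-fold higher in MIGA2-KO and at least 382-fold higher in WT. Of the 52 MIGA2-KO reads at day 6, 43 came from the library labelled MIGA2-KO day 6 replicate 1, and with that library left out MIGA2-KO was at least 4.81-fold higher at day 6, with 9 reads.

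In the energy group, Slc25a5 rose in both lines and Slc25a3 rose less. Slc25a5 had 433, 409 and 396 CPM at day 6 and 194, 191 and 191 CPM at day 0 in MIGA2-KO. In WT it had 878, 975 and 998 CPM at day 6 and 277, 224 and 214 CPM at day 0. The day 6 libraries lay above the day 0 libraries in each line, with the WT day 6 libraries above all others. Its log2 fold changes were 1.10 ± 0.10 in MIGA2-KO and 1.997 ± 0.10 in WT (edgeR adjusted p = 5.65e-07 and 4.76e-10). Slc25a3 rose by 0.42 in MIGA2-KO, a call lost with GC content and length corrected (0.40, adjusted p = 0.0888), and by 0.97 in WT on the log2 scale. Slc25a4 was not called over time in either line, with log2 fold changes of -0.05 ± 0.15 in MIGA2-KO and -0.14 ± 0.15 in WT. The 7 near-identical pseudogene copies of Slc25a5, up to 98.3% identical in coding sequence, are not among the listed identifiers, and the sources used here do not state how reads matching several places were counted, so its level is less certain.

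The 3 calcium-regulated ATP-Mg/phosphate carriers, which set the matrix pool of adenine nucleotides, were called differently in the 2 lines. In MIGA2-KO 1 of the 3 was called, and it fell, beside 21% of all genes called lower and 23.3% higher. In WT 1 fell, 1 rose and 1 was not called, beside 33.1% of all genes called lower and 31.7% higher. Slc25a24 had 64.9, 68.5 and 75.2 CPM at day 6 and 105, 98.1 and 91.5 CPM at day 0 in MIGA2-KO, a log2 fold change of -0.50 ± 0.20 that was not called (edgeR adjusted p = 0.0603). In WT it had 20.1, 10.2 and 12.6 CPM at day 6 and 43.01, 65.5 and 73.8 CPM at day 0, and it fell with a log2 fold change of -2.08 ± 0.22 (adjusted p = 9.6e-07). The 2 sets of WT libraries did not overlap, nor did those of MIGA2-KO. Slc25a25 had 0.45 ± 0.18 in MIGA2-KO, not called (edgeR adjusted p = 0.054), and rose in WT (1.85 ± 0.17, adjusted p = 2.34e-07). Slc25a23 fell in MIGA2-KO (-0.89 ± 0.21, edgeR adjusted p = 0.00292) and had -0.45 ± 0.20 in WT, which was not called. For this gene the difference between the 2 changes was not called either.

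Of the 4 tested amino acid carriers outside the aspartate and glutamate group, 2 rose in MIGA2-KO and all 4 in WT, beside 23.3% and 31.7% of all genes. Slc25a29, a carrier of basic amino acids, had 14.8, 14.8 and 14.1 CPM at day 6 and 4.98, 5.73 and 5.43 CPM at day 0 in MIGA2-KO. In WT it had 51.7, 81.3 and 88.5 CPM at day 6 and 11.1, 6.30 and 6.88 CPM at day 0. The groups did not overlap, and the log2 fold changes were 1.44 ± 0.23 in MIGA2-KO and 3.20 ± 0.22 in WT (edgeR adjusted p = 0.000129 and 8.04e-09). The ornithine carrier Slc25a15 rose in both lines, with 0.76 in MIGA2-KO and 0.75 in WT. Slc25a38, which imports glycine for haem synthesis, and Slc25a44, a carrier of branched-chain amino acids, had 0.02 and 0.16 in MIGA2-KO, neither called, and rose in WT by 0.85 and 0.88. The glutamate carrier Slc25a22 rose in both lines, with 0.86 ± 0.19 in MIGA2-KO and 2.29 ± 0.19 in WT. The aspartate/glutamate carriers, which feed the malate-aspartate shuttle, had 1 rise and 1 fall called in WT. Neither was called in MIGA2-KO (0.22 for Slc25a12 and -0.36 for Slc25a13), while in WT Slc25a12 rose by 0.43 and Slc25a13 fell by 1.55 on the log2 scale. The Slc25a12 rise was 0.04 (edgeR adjusted p = 0.789) when scaled by library totals, so the rise is not settled. That scaling also ended the WT calls for Slc25a15 (0.36), Slc25a35 (0.45) and Slc25a46 (0.13).

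Of the 9 nucleotide and cofactor carriers, 5 rose in MIGA2-KO and 6 in WT, and none fell. Among all genes 23.3% were called higher and 21% lower in MIGA2-KO, and 31.7% higher and 33.1% lower in WT. Slc25a33, which imports pyrimidine nucleotides, had 25.995, 11.4 and 9.67 CPM at day 6 and 5.62, 6.42 and 5.84 CPM at day 0 in MIGA2-KO. In WT it had 40.96, 59.2 and 69.1 CPM at day 6 and 8.30, 6.74 and 5.10 CPM at day 0. The library labelled MIGA2-KO day 6 replicate 1 was well above the other 2 of its group, and the log2 fold change of 1.39 ± 0.32 was 0.82 without it (edgeR adjusted p = 0.0131). In WT the log2 fold change was 3.07 ± 0.31 (adjusted p = 6.16e-07), and days did not overlap in either line. The coenzyme A carrier Slc25a42 rose by 1.67 in MIGA2-KO and 1.38 in WT, and the NAD carrier Slc25a51 by 0.51 in MIGA2-KO and 0.68 in WT. Slc25a26, the carrier of the methyl donor S-adenosylmethionine, had -0.18 in MIGA2-KO, not called, and rose in WT (1.44). The peroxisomal cofactor carrier Slc25a17 had 0.10 in MIGA2-KO, not called, and rose in WT (0.75). Slc25a16, linked to coenzyme A supply, rose in MIGA2-KO (0.82) and had 0.50 in WT, not called. The folate carrier Slc25a32 and the pyrimidine nucleotide carrier Slc25a36 were called in neither line.

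The iron importers of the inner membrane, mitoferrins 1 and 2, moved apart. Slc25a37 (mitoferrin 1) fell by 0.84 in MIGA2-KO and by 1.32 in WT on the log2 scale, while Slc25a28 (mitoferrin 2) rose by 0.95 in MIGA2-KO and 1.26 in WT. Of the glutathione carriers, Slc25a39 had 0.46 in MIGA2-KO, not called, and rose in WT (1.24), and Slc25a40 was called in neither. Of the 3 relatives of the uncoupling proteins, Slc25a30 fell by 0.79 in MIGA2-KO. All 3 fell in WT, where 33.1% of all genes were called lower. There Slc25a14 fell by 0.63, Slc25a27 by 0.86 and Slc25a30 by 0.61, each call being lost in 5 or 6 of the alternatives. Slc25a46, an outer membrane member tied to mitochondrial shape, rose by 0.36 in MIGA2-KO and 0.52 in WT, although its MIGA2-KO libraries of the 2 days overlapped and that call was lost in 8 alternatives. Among the less characterised carriers, Slc25a35 rose by 0.95 and 0.85, and Slc25a45 by 0.51 and 0.76, in MIGA2-KO and WT in that order. Slc25a47, which was low in every library, had 0.54 in MIGA2-KO, not called, and rose in WT (1.65). Slc25a53 rose in MIGA2-KO (0.75) and had -0.14 in WT, not called.

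**Figure D2:**
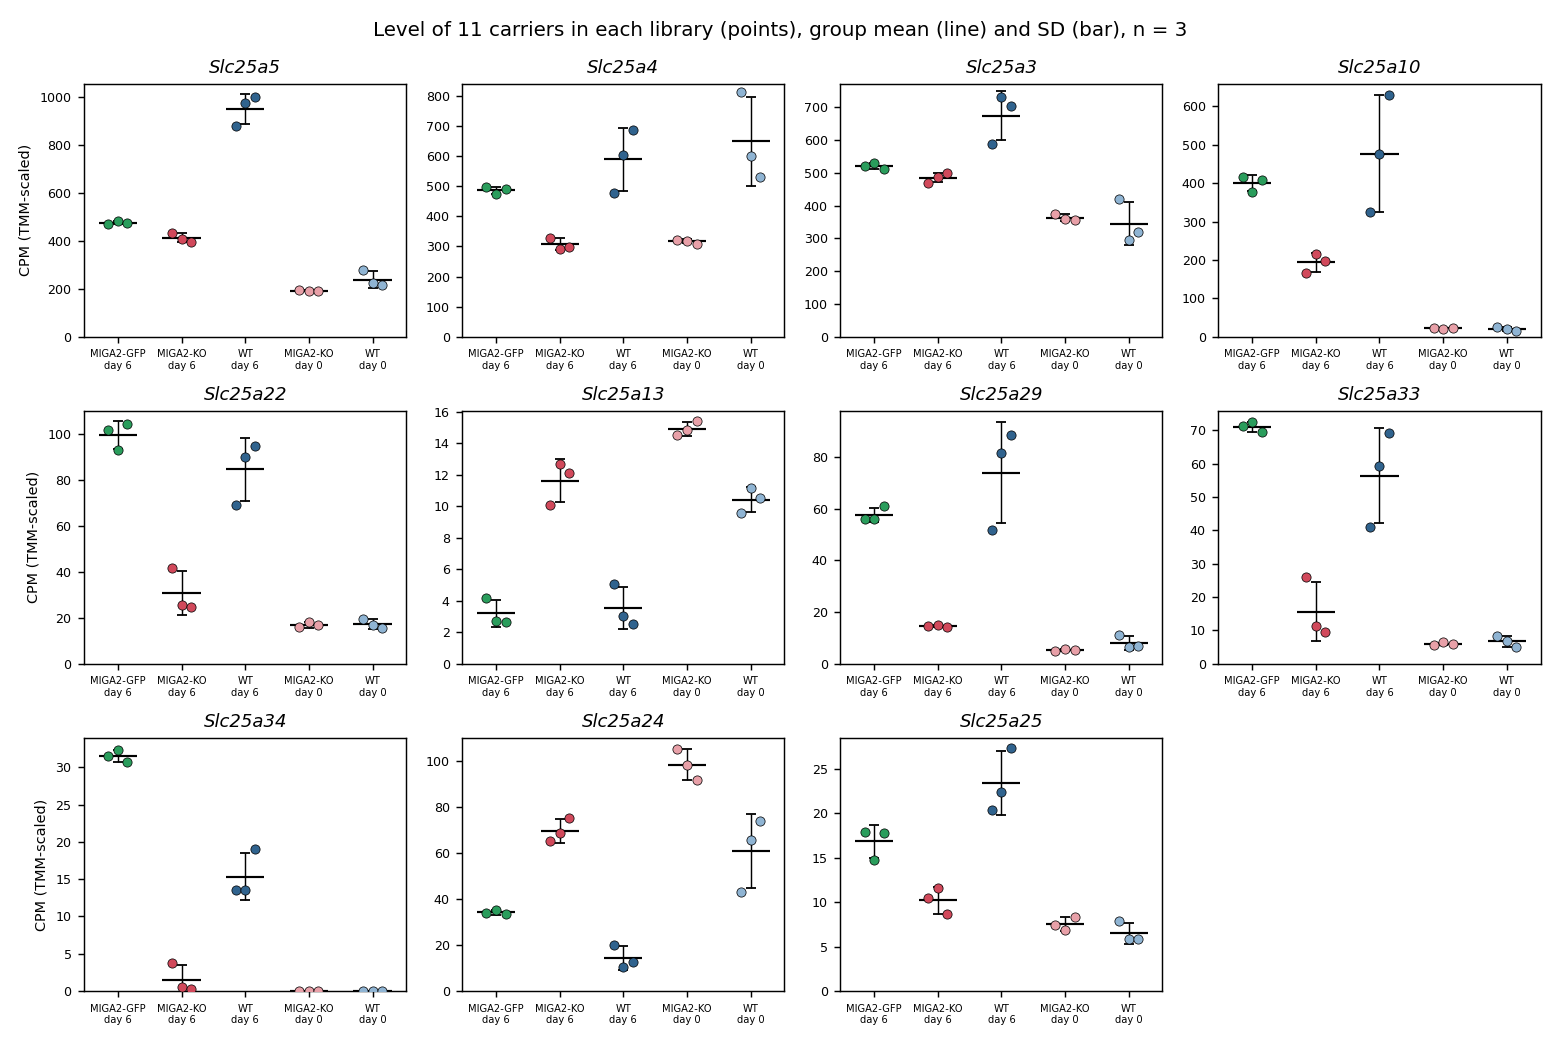
CPM of 11 carriers (y axes from 0, each gene on its own scale) in each library of the 5 groups, with the mean (line) and SD (bar) of 3 libraries. At day 6 Slc25a10 has 167 to 217 CPM in MIGA2-KO and 324 to 629 CPM in WT, while Slc25a24 runs the other way.

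At day 6 most of the carriers called between MIGA2-KO and WT were lower in MIGA2-KO. Of 37, 21 fell, 5 rose and 11 were not called by edgeR, where 60.7% of all genes were called, 31.5% lower and 29.2% higher. The median carrier log2 fold change was -0.49, beside -0.01 for all genes. By this fit all 3 energy carriers, both dicarboxylate and oxoacid carriers and all 4 other amino acid carriers fell, as did 5 of 9 nucleotide and cofactor carriers and 2 of 4 iron and glutathione carriers. No uncoupling protein relative was called. Not all of these calls held under every scaling. Scaled by library totals, Slc25a3 (-0.22, edgeR adjusted p = 0.0778), Slc25a15 (-0.23, adjusted p = 0.239) and Slc25a44 (-0.09, adjusted p = 0.511) were not called. With GC content and length corrected, Slc25a11 (-0.06, edgeR adjusted p = 0.42) and Slc25a44 (-0.19, adjusted p = 0.129) were not called.

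Slc25a5 had 413 ± 18.6 CPM in MIGA2-KO and 951 ± 63.6 CPM in WT at day 6 (SD, n = 3 each), a log2 fold change of -1.20 ± 0.10 (edgeR adjusted p = 3.64e-07). Slc25a4 had 329.9, 293 and 298 CPM in MIGA2-KO and 477, 606 and 687 CPM in WT, with -0.94 ± 0.15 (adjusted p = 0.000105). For both genes every MIGA2-KO library lay below every WT library. Slc25a3 fell less, with -0.47. Slc25a10 had 194 ± 25.2 CPM in MIGA2-KO and 476 ± 152 CPM in WT, with -1.30 ± 0.21 (adjusted p = 0.000107), and the groups did not overlap. Slc25a11 had -0.67, which was -0.06 and not called with GC content and length corrected. Slc25a34 had 3.74, 0.494 and 0.261 CPM in MIGA2-KO and 13.5, 13.5 and 19.02 CPM in WT. The highest of the MIGA2-KO values is the library labelled MIGA2-KO day 6 replicate 1, and the log2 fold change of -3.36 (edgeR adjusted p = 0.000483) became -5.29 without it.

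Among cofactor and amino acid carriers large falls were those of Slc25a29 (-2.34 ± 0.21), Slc25a26 (-2.12 ± 0.25), Slc25a33 (-1.85 ± 0.30) and Slc25a22 (-1.47 ± 0.18), with edgeR adjusted p between 6.83e-07 and 0.00012. Slc25a29 had 14.8, 14.8 and 14.1 CPM in MIGA2-KO and 51.7, 81.3 and 88.5 CPM in WT. Slc25a26 had 6.78, 3.54 and 2.96 CPM in MIGA2-KO and 15.8, 20.3 and 21.7 CPM in WT. In all 4 genes the groups were apart, and in Slc25a22, Slc25a26 and Slc25a33 the library labelled MIGA2-KO day 6 replicate 1 was the MIGA2-KO library nearest to WT. Smaller falls were called for Slc25a25 (-1.19), Slc25a47 (-1.24), Slc25a35 (-1.22), Slc25a28 (-1.03), Slc25a38 (-1.01), Slc25a17 (-0.91), Slc25a39 (-0.79), Slc25a42 (-0.70), Slc25a15 (-0.49) and Slc25a44 (-0.34).

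The 5 that rose included the ATP-Mg/phosphate carrier Slc25a24, with 64.9, 68.5 and 75.2 CPM in MIGA2-KO and 20.1, 10.2 and 12.6 CPM in WT (2.28 ± 0.22, edgeR adjusted p = 1.29e-06). Slc25a13 had 10.1, 12.7 and 12.1 CPM in MIGA2-KO and 5.06, 3.02 and 2.52 CPM in WT (1.71 ± 0.23, adjusted p = 2.22e-05). Slc25a32 had 51.9, 54.9 and 55.7 CPM in MIGA2-KO and 27.6, 21.5 and 21.8 CPM in WT (1.19 ± 0.17, adjusted p = 3.22e-05). Groups did not overlap in these 3. Slc25a16 (0.76) and Slc25a53 (0.60) rose less. The Slc25a16 call was lost without WT day 6 replicate 2 (0.57, edgeR adjusted p = 0.0554). The Slc25a53 call was lost in 6 alternatives, 3 of them with 1 library left out.

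**Figure D3:**
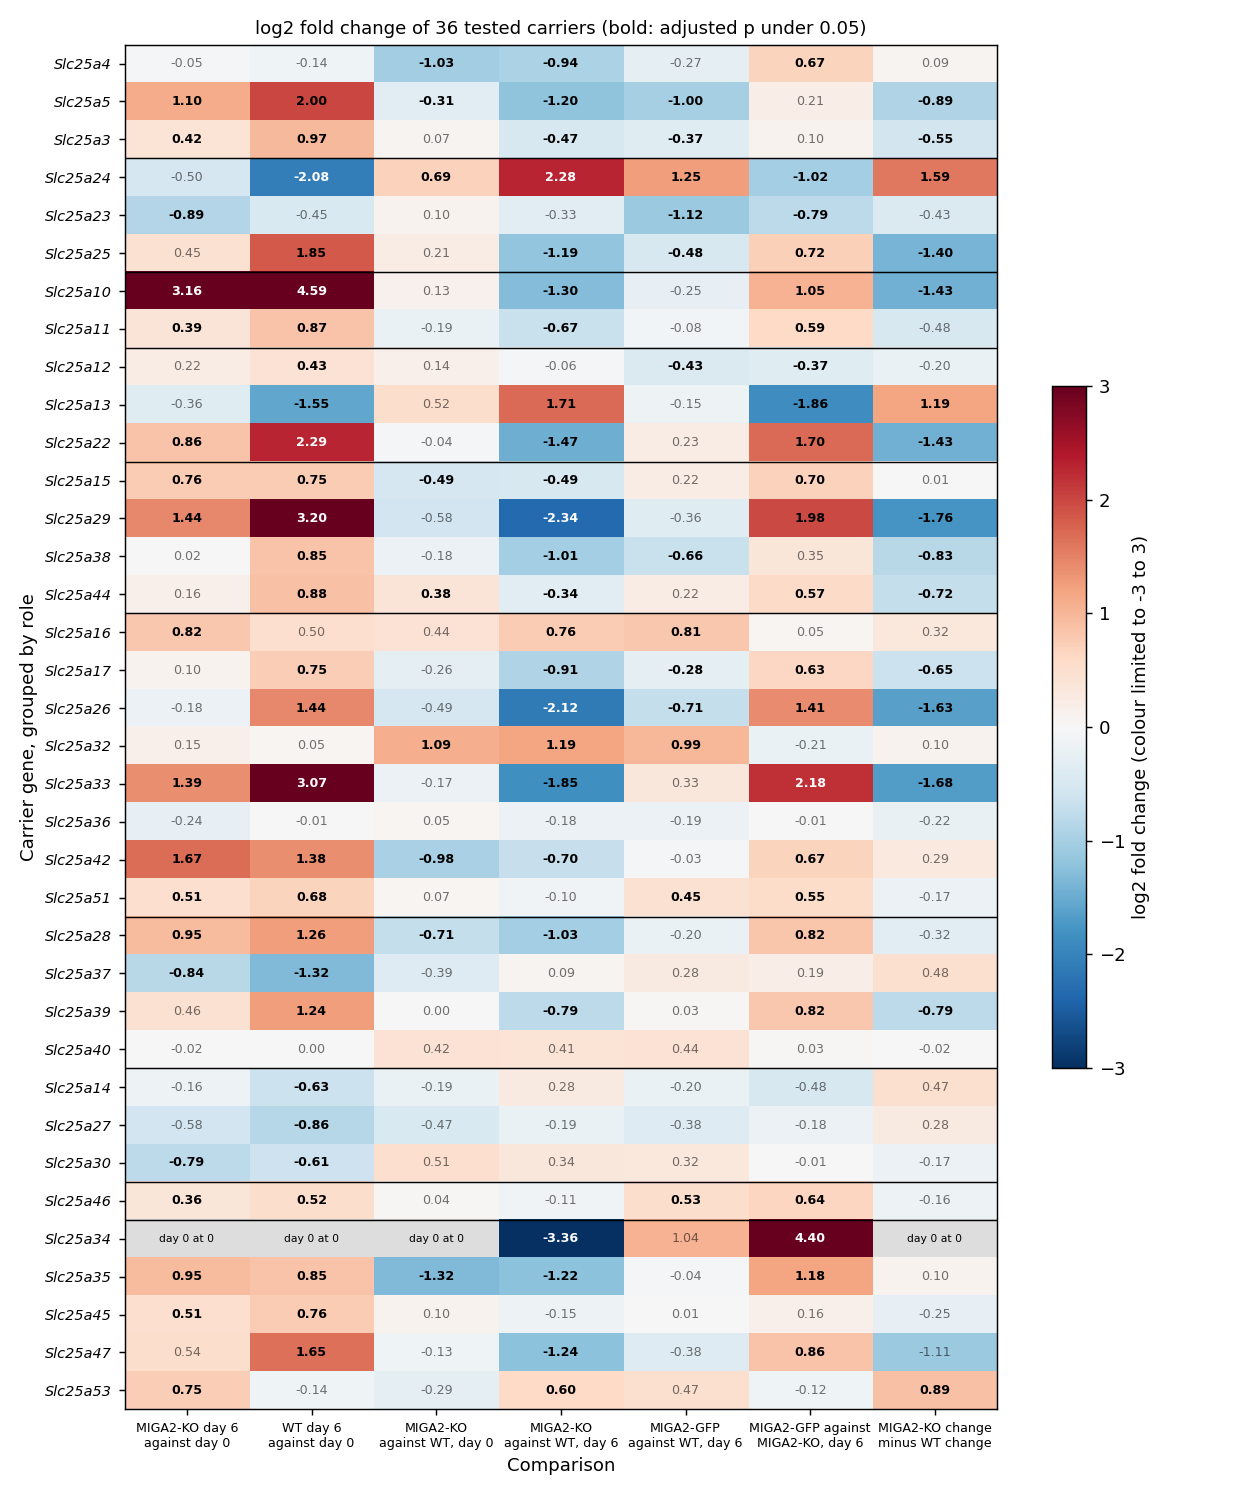
log2 fold changes of 36 tested carriers (rows, grouped by role) in 7 comparisons (columns), red for higher and blue for lower in the group named first, with values in bold where the edgeR adjusted p is under 0.05. Grey cells are comparisons of Slc25a34 that involve day 0, where it had no reads. The column of MIGA2-KO against WT at day 6 is mostly blue, with Slc25a24, Slc25a13 and Slc25a32 among the few in red.

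Before differentiation fewer carriers differed, and so did fewer of all genes (33.9% called at day 0, 60.7% at day 6). At day 0, 7 of 37 were lower and 3 higher in MIGA2-KO than in WT, and 27 were not called by edgeR, where 17.7% of all genes were called lower and 16.1% higher. The median carrier log2 fold change was -0.04 (-0.08 without Slc25a34, which had no reads), beside -0.03 for all genes, and turned to 0.03 beside 0.02 with GC content and length corrected. Slc25a4 had 323, 319 and 309.8 CPM in MIGA2-KO and 816, 602 and 531 CPM in WT, and fell with a log2 fold change of -1.03 ± 0.15 (adjusted p = 0.000191). The WT libraries were widely spread, and every MIGA2-KO library was below them. Slc25a35 (-1.32 ± 0.23), Slc25a42 (-0.98 ± 0.13), Slc25a28 (-0.71), Slc25a15 (-0.49) and Slc25a5 (-0.31) also fell. Slc25a35 had 2.41, 2.29 and 1.70 CPM in MIGA2-KO and 4.76, 6.37 and 4.89 CPM in WT. Slc25a32 rose, with 49.4, 49.6 and 47.2 CPM in MIGA2-KO and 15.9, 24.5 and 28.04 CPM in WT (1.09 ± 0.16, edgeR adjusted p = 0.000223). Slc25a24 (0.69) and Slc25a44 (0.38) rose less, and neither was called when scaled by library totals (0.56 and 0.26, edgeR adjusted p = 0.0618 and 0.103). The number of carriers called higher ranged over 1 to 8 across the alternatives, and the Slc25a5 value turned to 0.09 with GC content and length corrected, so that direction is not settled.

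The change over time itself differed between the lines for 16 of the 37 carriers. The MIGA2-KO change was below the WT change for 13 and above it for 3 by edgeR, with 21 not called, where 13.6% of all genes were called lower and 13.7% higher. The median difference was -0.25, beside 0.02 for all genes, but scaling by library totals moved it to 0.12 beside 0.39 for all genes, and then 8 were called lower and 6 higher. Differences are MIGA2-KO change minus WT change on the log2 scale. Large negative differences were called for Slc25a29 (-1.76 ± 0.31), Slc25a33 (-1.68 ± 0.44), Slc25a26 (-1.63 ± 0.35), Slc25a10 (-1.43 ± 0.30), Slc25a22 (-1.43 ± 0.26) and Slc25a25 (-1.40 ± 0.24), with edgeR adjusted p between 0.000749 and 0.0111. Slc25a5 had -0.89 ± 0.14 (edgeR adjusted p = 0.000371). Smaller negative differences were called for Slc25a38 (-0.83), Slc25a39 (-0.79), Slc25a44 (-0.72), Slc25a17 (-0.65) and Slc25a3 (-0.55). Slc25a24 (1.59 ± 0.30, adjusted p = 0.00127), Slc25a13 (1.19 ± 0.30, adjusted p = 0.00889) and Slc25a53 (0.89 ± 0.29, adjusted p = 0.035) were above 0. For Slc25a24 and Slc25a13 the MIGA2-KO change was not called and the WT change was a fall. Slc25a15, Slc25a42, Slc25a35 and Slc25a4 had differences of 0.01 ± 0.22, 0.29 ± 0.17, 0.10 ± 0.31 and 0.09 ± 0.21, none of them called. The first 3 of these 4 rose in both lines from a lower day 0 level in MIGA2-KO. The calls for Slc25a3, Slc25a38, Slc25a39 and Slc25a53 were lost in 9 or 10 of 12 fits with 1 library left out, and those for Slc25a17 (-0.28) and Slc25a44 (-0.35) when scaled by library totals.

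**Figure D4:**
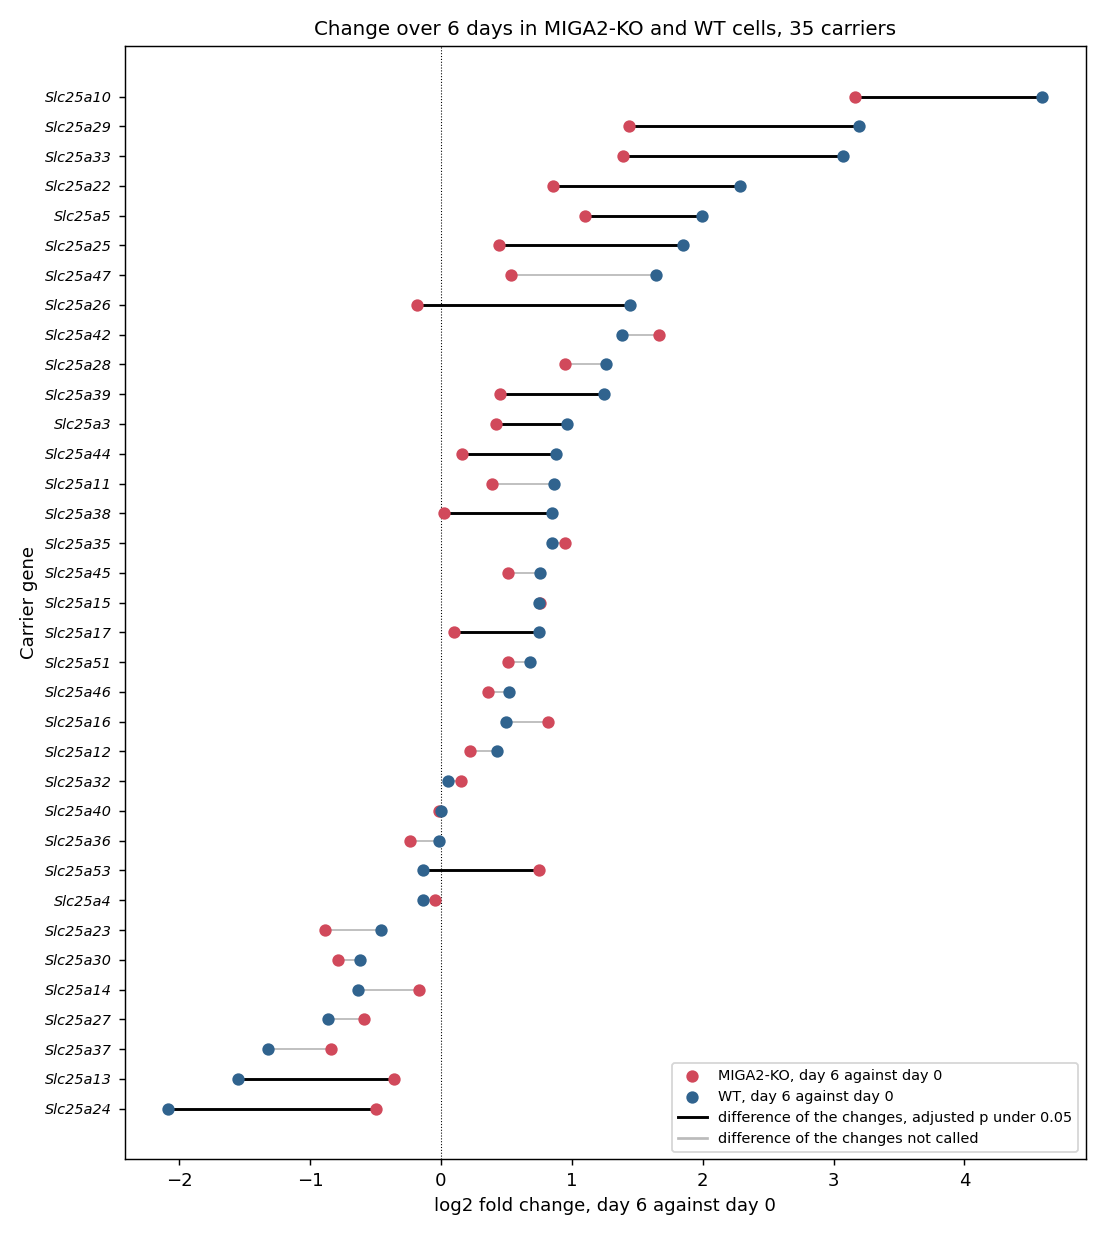
log2 fold change from day 0 at day 6 (x axis) of 35 carriers in MIGA2-KO (red) and WT (blue) cells, ordered by the WT value, with a black line where the difference between the lines is called. For the carriers that rose most in WT, at the top, the MIGA2-KO points lie nearer to 0. Slc25a34 is left out because it had no reads at day 0.

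MIGA2-GFP cells at day 6 had higher levels than MIGA2-KO cells for most of the called carriers. Fewer carriers were called against WT, as were fewer of all genes (35.3%, beside 47.9% against MIGA2-KO). Against MIGA2-KO, 20 of 37 were higher, 4 lower and 13 not called by edgeR, where 25.4% of all genes were called higher and 22.5% lower. The median was 0.57, beside 0.01 for all genes. Against WT, 5 were higher, 9 lower and 23 not called, where 16.5% of all genes were called higher and 18.9% lower. The median was -0.08 beside 0.00 for all genes, and turned to 0.10 beside 0.18 when scaled by library totals. These comparisons share the MIGA2-GFP libraries, and the one with MIGA2-KO shares its MIGA2-KO libraries with the comparison to WT, so the calls are not independent of each other.

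Slc25a33 had 71.2, 72.4 and 69.4 CPM in MIGA2-GFP, 25.995, 11.4 and 9.67 CPM in MIGA2-KO and 40.96, 59.2 and 69.1 CPM in WT. All MIGA2-GFP libraries were above the WT libraries, though only just, and that difference was not called (0.33 ± 0.28). Against MIGA2-KO the log2 fold change was 2.18 ± 0.30 (edgeR adjusted p = 4.84e-05). Slc25a22 had 102, 92.8 and 104 CPM in MIGA2-GFP, 41.6, 25.5 and 24.7 CPM in MIGA2-KO and 69.2, 89.8 and 94.8 CPM in WT. MIGA2-GFP overlapped WT and lay above every MIGA2-KO library (1.70 ± 0.18, adjusted p = 6.01e-06). Slc25a34 had 31.5, 32.3 and 30.8 CPM in MIGA2-GFP, and its libraries were above those of WT and of MIGA2-KO. The log2 fold change was 4.40 ± 0.56 against MIGA2-KO (edgeR adjusted p = 0.000117), 6.31 when the library labelled MIGA2-KO day 6 replicate 1 was left out, and 1.04 ± 0.45 against WT, not called. Slc25a29 (1.98), Slc25a26 (1.41), Slc25a35 (1.18) and Slc25a10 (1.05) were also above MIGA2-KO by at least 1 on the log2 scale.

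Some carriers in MIGA2-GFP did not sit near WT. Slc25a5 had 468, 483 and 475 CPM in MIGA2-GFP, 433, 409 and 396 CPM in MIGA2-KO and 878, 975 and 998 CPM in WT. The MIGA2-GFP libraries lay far below WT (-0.999 ± 0.10, edgeR adjusted p = 1.38e-05) and just above MIGA2-KO, a difference not called (0.21 ± 0.10). Slc25a32 had 46.9 ± 1.21 CPM in MIGA2-GFP, 54.2 ± 2.01 CPM in MIGA2-KO and 23.7 ± 3.40 CPM in WT, and was higher than in WT (0.99 ± 0.17, adjusted p = 0.000564). Slc25a24 took a middle place, with 33.7, 35.3 and 33.5 CPM in MIGA2-GFP. It was above WT (1.25 ± 0.22) and below MIGA2-KO (-1.02 ± 0.21), with no overlap on either side. Slc25a13 had 4.18, 2.75 and 2.67 CPM in MIGA2-GFP, overlapping WT and below MIGA2-KO (-1.86 ± 0.23). Slc25a23 was lowest in MIGA2-GFP, with 1.84 ± 0.370 CPM, 3.21 ± 0.507 CPM in MIGA2-KO and 4.04 ± 0.558 CPM in WT, and was called lower than both (-0.79 against MIGA2-KO, or -0.68 and not called without MIGA2-KO day 6 replicate 2, and -1.12 against WT). Slc25a16 (0.81), Slc25a46 (0.53) and Slc25a51 (0.45) were higher than in WT. Slc25a26, Slc25a38, Slc25a25, Slc25a12, Slc25a3 and Slc25a17 were lower than in WT, with log2 fold changes between -0.71 and -0.28. Of the 14 calls against WT, 9 were lost in at least 1 alternative, and the 5 kept in all were Slc25a5, Slc25a23, Slc25a24, Slc25a32 and Slc25a51.

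Carriers of the same or a like substrate shifted against each other, as the ratio of their reads per length shows. The ratio of Slc25a4 to Slc25a5 was 0.742, 0.687 and 0.724 in MIGA2-GFP, 0.533, 0.502 and 0.527 in MIGA2-KO and 0.380, 0.435 and 0.481 in WT libraries at day 6. At day 0 it was 1.16, 1.17 and 1.13 in MIGA2-KO and 2.06, 1.88 and 1.74 in WT. By these counts Slc25a4 was thus the higher of the 2 sister genes at day 0 and Slc25a5 at day 6, in every library of both lines. Near-identical copies make the level of Slc25a5 less certain, and so this ranking too. The groups did not overlap in any of the 6 comparisons, each with an exact two-sided permutation p = 0.1, the smallest that 3 against 3 allows (adjusted p = 0.133 over 48 tests). The coding sequences of the genes are 78.6% identical. The log2 ratio differed between days by -1.15 in MIGA2-KO and by -2.13 in WT.

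Averages of ratios given next are geometric means over the libraries of a group, with a small constant added to each count. The ratio of Slc25a12 to Slc25a13 averaged 7.55 in MIGA2-GFP, 2.64 in MIGA2-KO and 9.36 in WT at day 6, and 1.77 in MIGA2-KO and 2.30 in WT at day 0. MIGA2-KO libraries at day 6 lay below all WT and MIGA2-GFP libraries, and their log2 ratio differed from WT by -1.83 (exact permutation p = 0.1). The ratio of Slc25a24 to Slc25a25 averaged 4.67 in MIGA2-GFP, 15.6 in MIGA2-KO and 1.36 in WT at day 6, and 29.9 in MIGA2-KO and 21.0 in WT at day 0. All 3 groups at day 6 were apart from each other. The ratio of Slc25a10 to Slc25a11 averaged 1.46 in MIGA2-GFP, 1.06 in MIGA2-KO and 1.604 in WT at day 6, and 0.156 in MIGA2-KO and 0.123 in WT at day 0. Slc25a11 was the higher of these at day 0 in all 6 libraries, and Slc25a10 at day 6 in all but the library labelled MIGA2-KO day 6 replicate 1, at 0.872. Slc25a33 to Slc25a36 averaged 8.70 in MIGA2-GFP, 1.73 in MIGA2-KO and 6.09 in WT at day 6, and 0.619 in MIGA2-KO and 0.711 in WT at day 0. At day 6 this ratio was 3.08, 1.53 and 1.11 in MIGA2-KO and 3.32, 7.89 and 8.64 in WT libraries. The highest MIGA2-KO value was that of the library labelled MIGA2-KO day 6 replicate 1. Slc25a37 to Slc25a28 averaged 0.219 in MIGA2-GFP, 0.340 in MIGA2-KO and 0.158 in WT at day 6, and 1.18 in MIGA2-KO and 0.936 in WT at day 0. Slc25a23 to Slc25a25 averaged 0.165 in MIGA2-GFP, 0.470 in MIGA2-KO and 0.259 in WT at day 6, and 1.18 in MIGA2-KO and 1.26 in WT at day 0. Slc25a39 stood above Slc25a40 by 43.3 to 369 times in every library, and WT days overlapped.

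**Figure D5:**
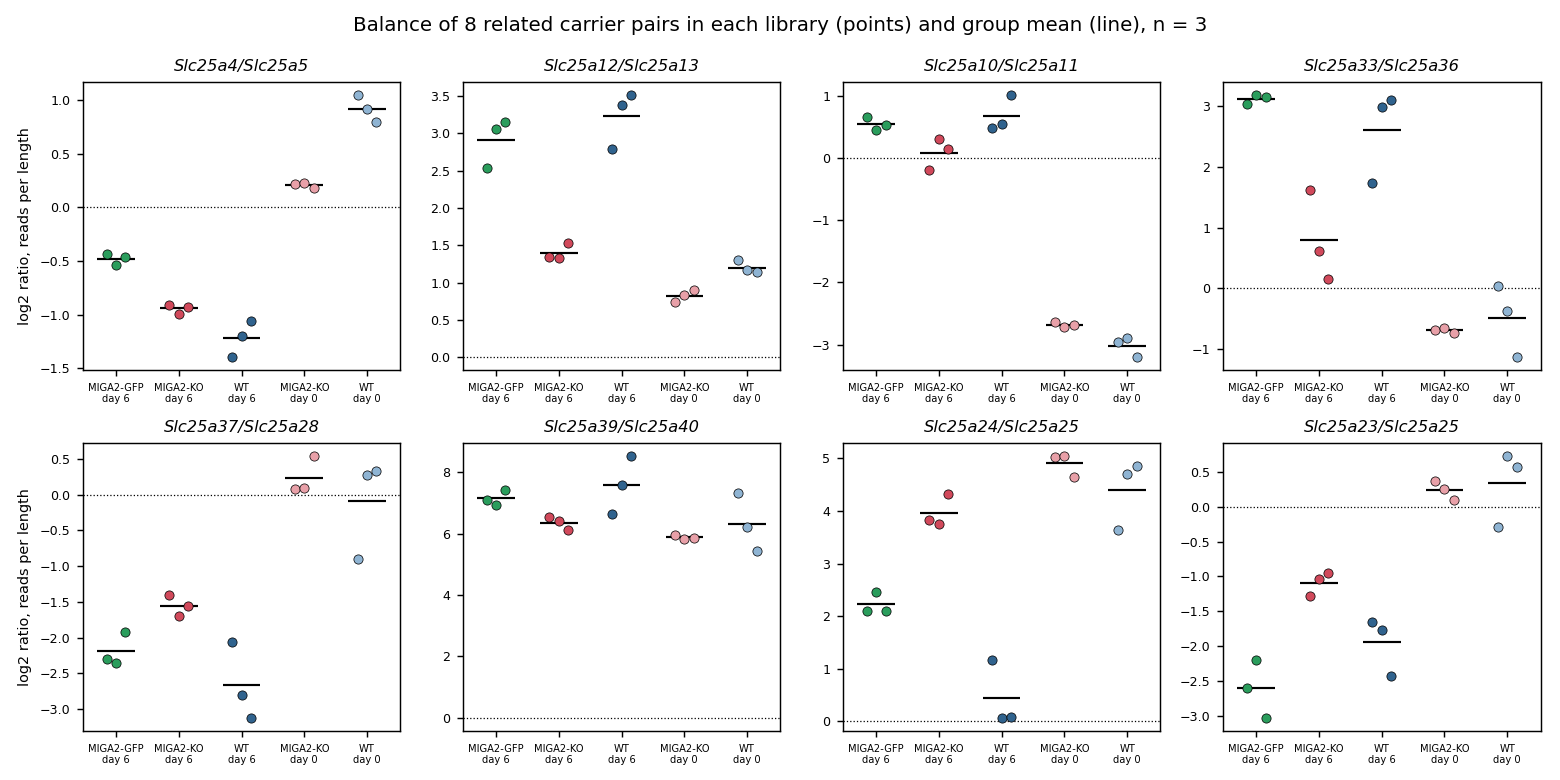
log2 ratio of reads per length (y axes, 0 where both genes are equal) for 8 pairs of related carriers in each library of the 5 groups, with the group mean as a line. For Slc25a4/Slc25a5 every day 6 library lies below 0 and every day 0 library above it.

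Relatives outside the member rule were also lower in MIGA2-KO than in WT at day 6. Slc25a1 had 238 ± 29.1 CPM in MIGA2-KO and 775 ± 139.5 CPM in WT at day 6 (-1.70 ± 0.16, edgeR adjusted p = 8.24e-07). Slc25a20 had 21.1 ± 3.96 CPM in MIGA2-KO and 60.9 ± 1.08 CPM in WT (-1.53 ± 0.12, adjusted p = 2.3e-07). With Ucp2, Ucp3, Mtch1 and Mtch2 they make 6 tested relatives. Of these, 5 fell and none rose in MIGA2-KO against WT at day 6, beside 31.5% of all genes lower and 29.2% higher. Over time 4 rose and 1 fell in MIGA2-KO, beside 23.3% of all genes higher and 21% lower. In WT 5 rose and 1 fell, beside 31.7% of all genes higher and 33.1% lower. Ucp1, the uncoupling protein of brown fat, was at 0 in every group. Of 13 genes of the carrier import route, 7 rose and none fell over time in MIGA2-KO and 12 rose and none fell in WT, beside 23.3% of all genes higher in MIGA2-KO and 31.7% in WT. At day 6, 9 of these were lower and 1 higher in MIGA2-KO than in WT, beside 31.5% of all genes lower and 29.2% higher, with a median of -0.91 beside -0.01 for all genes. The lower ones included the small intermembrane chaperones Timm9 (-1.38 ± 0.19) and Timm10 (-0.92 ± 0.20) and the outer membrane channel Tomm40 (-0.91 ± 0.22). In MIGA2-GFP, Timm9 (-1.11) and Timm10 (-0.95) were lower than in WT as well, and 4 of the 13 were, beside 18.9% of all genes. Of 21 mitochondrial transporters and channels outside the family, 10 were lower and 4 higher in MIGA2-KO than in WT at day 6, beside the same 31.5% and 29.2% of all genes, with a median of -0.29. The pyruvate carrier subunit Mpc1 (-1.75 ± 0.11) and the serine transporter Sfxn1 (-0.46 ± 0.09) were among those that fell.

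The remaining 8 members could not be tested. Slc25a2, Slc25a18, Slc25a21, Slc25a31, Slc25a41 and Slc25a48 had between 0 and 4 reads in any library, and Slc25a43 and Slc25a54 had none in all 15. Slc25a21, a carrier of oxodicarboxylates, had 0, 4 and 3 reads in the MIGA2-KO libraries at day 6 and none in the MIGA2-GFP libraries. Slc25a31, an ADP/ATP carrier of the testis, had 2 reads in 1 WT library at day 0 and none elsewhere. At these depths differences between groups were not detectable. Among tested members, Slc25a36, Slc25a40 and Slc25a51 also have 1 near copy each in the genome, up to 99.6% identical for Slc25a36, so their counts are uncertain in the same way as those of Slc25a5.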

How the data were processed

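RNA-seq gene counts of 15 libraries in 5 groups of 3 were used, as deposited by the authors, with 0 columns of other samples. Per the submitters' processing notes, the tools were bcl2fastq 2.19, Trimmomatic, STAR 2.5.4b, featureCounts and edgeR, on GRCm38.p5. The sources used here do not state how strand and reads with several matches were handled, which can change the counts of genes with near copies. Of 25700 identifiers, 25664 matched GENCODE and 36 did not.

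Counts were filtered with filterByExpr (minimum count 10, minimum total 15), scaled by TMM and fitted once over all 12279 genes and 5 groups with edgeR 4.0.16 in R 4.3.3 by quasi-likelihood, with Benjamini-Hochberg adjustment over all genes and a threshold of 0.05. The SE of a log2 fold change is its size over the square root of F. CPM use TMM-scaled library sizes, and RPKM divide these by the exon length of GENCODE vM21. Single values were compared by exact permutation. DESeq2 1.42.0 was an alternative. Counting error limits low genes: 3 reads over a group was the floor.

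1 carrier counted among the members is not reported here by name. Members and lists were chosen with earlier results of these data known. Named with values were the carriers called with a log2 fold change of at least 1 either way and a mean of at least 1 CPM (up to 12 per direction), the 6 highest per length, up to 3 per role with the smallest adjusted p in WT over time, those whose changes differed between the lines and the paralogue pairs; other called carriers, Slc25a42 at day 0 among them, were named to account for each count. No pairing by replicate number was fitted. Deviations from the group mean were correlated between same-numbered libraries of different groups, with values from -0.723 to 0.125 over 30 pairs. For WT day 0 with WT day 6 these were -0.723, -0.363 and -0.524 for replicates 1, 2 and 3.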

Additional observations from a re-analysis of the deposited data

Results flagged for a closer look

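For 16 of 37 carriers the change over 6 days differed between the MIGA2-KO and WT lines by edgeR's test of that difference. Of all 12279 genes tested, 27.2% were called in this test. Of the 16 carrier calls, 6 were lost in 1 or more alternatives, and 15 of the carriers are given here. The MIGA2-KO change minus the WT change, on the log2 scale, was -1.76 for Slc25a29, -1.68 for Slc25a33, -1.63 for Slc25a26, -1.43 for Slc25a10, -1.43 for Slc25a22 and -1.40 for Slc25a25. It was -0.89 for Slc25a5, -0.83 for Slc25a38, -0.79 for Slc25a39, -0.72 for Slc25a44, -0.65 for Slc25a17 and -0.55 for Slc25a3. It was above 0 for Slc25a24 (1.59), Slc25a13 (1.19) and Slc25a53 (0.89). Leaving out the library labelled MIGA2-KO day 6 replicate 1 gave a Slc25a33 difference of -2.25. The adipocyte marker sums differ between the lines in the same libraries, and their part in these differences was not tested.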

How the results depend on the processing

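Of the carrier calls, 18 of 21 in MIGA2-KO over time, 23 of 30 in WT over time, 5 of 10 in MIGA2-KO against WT at day 0, 20 of 26 at day 6, 5 of 14 in MIGA2-GFP against WT, 21 of 24 in MIGA2-GFP against MIGA2-KO and 10 of 16 in the difference of the changes were kept in every alternative run. Library totals in place of TMM, a correction for GC content and length, and the Slc25a34 bound without 1 library were chosen after seeing the data. Counts of carriers called moved as follows. In MIGA2-KO over time the lower ones numbered 6 with only the groups compared fitted and 5 with the 3 libraries that stand apart left out. At day 0 the higher ones numbered 5 by DESeq2, 8 without those 3 libraries, 1 with library totals and 8 with the GC correction. In MIGA2-GFP against WT the higher ones numbered 9 without the 3 libraries and 9 with the GC correction, and the lower ones 15 without the 3 libraries and 3 with library totals. In the difference of the changes the higher ones numbered 6 without the 3 libraries and 6 with library totals, and the lower ones 8 with library totals. The number of all genes called moved as well. Without the 3 libraries, 7625 genes were called in MIGA2-GFP against WT in place of 4338, and 7655 in the difference of the changes in place of 3346. In MIGA2-KO over time it was 7304 without them and 6802 with only the groups compared fitted, in place of 5442. At day 0 it was 6154 without them, 4502 by DESeq2, 4331 with library totals and 4751 with the GC correction, in place of 4159. With library totals it was 4639 in MIGA2-GFP against WT and 4664 in the difference of the changes. The Slc25a5 value at day 0 turned to 0.0928 with the GC correction. The causes were not tested.

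With library totals the median of all genes moved to -0.43 in WT over time, -0.15 at day 0, 0.24 in MIGA2-KO against WT at day 6, 0.18 in MIGA2-GFP against WT and 0.39 in the difference of the changes. The share of calls that were higher was then 29.6% in place of 48.9%, 28.1% in place of 47.6%, 63.6% in place of 48.1%, 69.6% in place of 46.6% and 82.6% in place of 50.1%, in that order of comparisons.

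With 1 library left out, higher, lower and all called numbered 16 to 17, 3 to 4 and 4516 to 4893 in MIGA2-KO over time, and 24 to 25, 3 to 6 and 7239 to 8860 in WT over time. They numbered 2 to 5, 4 to 9 and 2809 to 4707 in MIGA2-KO against WT at day 0, and 3 to 6, 19 to 21 and 6456 to 8018 at day 6. They numbered 4 to 6, 3 to 12 and 2759 to 5419 in MIGA2-GFP against WT, 19 to 20, 3 to 4 and 4648 to 5992 against MIGA2-KO, and 2 to 4, 10 to 15 and 2541 to 5186 in the difference of the changes. Without WT day 6 replicate 2, 3 carriers were lower in WT over time, 3 higher in MIGA2-KO against WT at day 6 and 4 lower in MIGA2-GFP against WT, where 2759 genes were called. The lower carriers in MIGA2-GFP against WT numbered 3 without WT day 6 replicate 3 and 4 to 5 without any 1 MIGA2-GFP library. At day 0, 5 were higher without WT day 0 replicate 3 and 4 lower without MIGA2-KO day 0 replicate 3, and the 5186 genes were called without WT day 0 replicate 1. The log2 ratio differences between groups that turned sign were those of Slc25a10/Slc25a11 (-0.233 to 0.0271) and Slc25a39/Slc25a40 (-0.903 to 0.0416) in MIGA2-GFP against WT. At day 0 they were those of Slc25a33/Slc25a36 (-0.524 to 0.0644), Slc25a37/Slc25a28 (-0.0708 to 0.543), Slc25a39/Slc25a40 (-0.888 to 0.0568) and Slc25a23/Slc25a25 (-0.404 to 0.101), none of which had groups apart.

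Same-numbered libraries of different groups had correlations of their deviations from the group mean of -0.723 to 0.125, with the WT day 0 and WT day 6 libraries negative for each number. With the replicate number as a block, 16 carriers were higher and 3 lower in MIGA2-KO over time, 24 and 6 in WT over time, 3 and 6 at day 0, 5 and 21 at day 6, 5 and 6 in MIGA2-GFP against WT, 19 and 4 against MIGA2-KO, and 2 and 10 in the difference of the changes. Without the block the lower ones in MIGA2-GFP against WT numbered 9, and the difference of the changes had 3 higher and 13 lower.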
